A study of Mus musculus with 12 samples.

Results

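The comparison set mouse 3T3-L1 adipocytes given 5 µM berberine for 12 h against the same cells given 5 µM berberine for 6 h. It is the late step within treated cells, and its members were chosen by title, as the 3 arrays labelled Berberine_12h and the 3 labelled Berberine_6h, which are 6 of the 12 arrays of the series. Every non-control probe set was taken, 45037 of the 45101 on the array. 3T3-L1 is a mouse fibroblast line that was turned into adipocytes with insulin, dexamethasone and 3-isobutyl-1-methylxanthine, and all groups were used between day 8 and day 10 after differentiation, after 12 h in medium with 0.2% bovine serum albumin in place of serum. The other 6 arrays, 3 of DMSO (the solvent control) and 3 of berberine for 3 h, entered the fit only to estimate the spread between arrays and are given as reference levels. The labels give the time of the DMSO cells only as control, so time in culture and time with berberine cannot be told apart in this comparison. They do not say whether the 3 arrays of a group came from separate cultures. The p-values here set each difference only against the spread between arrays within groups, and that spread may be technical.

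Berberine is a plant isoquinoline alkaloid that inhibits respiratory complex I and activates the energy sensor AMPK. Cells with impaired mitochondria or a shortage of amino acids phosphorylate the translation factor eIF2alpha, and the integrated stress response that follows raises the transcription factors ATF4, CHOP (the product of Ddit3) and ATF3 and their targets. Adipocytes keep triglyceride in a lipid droplet coated by perilipins and CIDE proteins, make it from fatty acids and glycerol phosphate, and release it through the lipases ATGL, HSL (Lipe) and monoglyceride lipase (Mgll).

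RNA was read on Affymetrix 3' expression arrays, and values are log2 MAS5 signal, so a difference of 1 is a 2-fold change and levels of different probe sets cannot be set against each other. Over the kept probe sets, arrays of the same group correlated with r from 0.960 to 0.962 (6 pairs), and 6 h arrays correlated with 12 h arrays with r from 0.956 to 0.961 (9 pairs). The difference between the 3' and 5' actin control probe sets, which grows as RNA degrades, was 1.57 to 1.70 at 6 h and 1.51 to 1.58 at 12 h. A probe set was kept when at least 3 of the 12 arrays reached the median of all values (log2 5.77), which left 12136 genes, each represented by its brightest kept probe set. In bulk RNA, fewer cells of a type and less RNA per cell cannot be told apart.

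Genes called higher at 12 h than at 6 h included regulators of the integrated stress response (Trib3, Ddit3), antioxidant genes (Hmox1) and the endoplasmic reticulum oxidase Ero1a. Genes called lower included those of lipid storage (Pck1, Cidec, G0s2), metabolite receptors (Hcar2), caveolae (Cavin2), glycolysis (Ldha) and cell division (Rrm2). Of 12136 genes, 690 (5.69%) passed an adjusted p under 0.05 in limma's test with Benjamini-Hochberg adjustment and are called here: 304 (2.5%) were higher at 12 h and 386 (3.18%) were lower. Each change is given below as a log2 shift, 12 h minus 6 h, with its SE after the ± sign, from 3 arrays against 3. Most changes were small. The median was 0.37 on the log2 scale for genes that rose and -0.41 for genes that fell, against -0.013 over all genes, and a change of at least 1 was reached by 6 genes that rose and 19 that fell. The 3 arrays of 12 h lay wholly above or below the 3 of 6 h in 683 of the called genes and in 2841 (23.4%) of all genes. The number called was sensitive to single arrays: it was 450, 435 and 410 without 12 h array 1, 2 and 3, and 443, 376 and 539 without 6 h array 1, 2 and 3. Called in all 6 of these fits were 247 genes, of which 113 rose and 134 fell. In a fit without limma's intensity trend, 80 of 153 named calls were lost, and not every such loss is given below. Fitted probe set by probe set, 948 of 25053 (3.78%) were called. Of 707 other kept probe sets of called genes, 571 changed in the direction of the gene and 141 were called in that direction. None of them was called in the opposite direction.

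**Figure D1:**
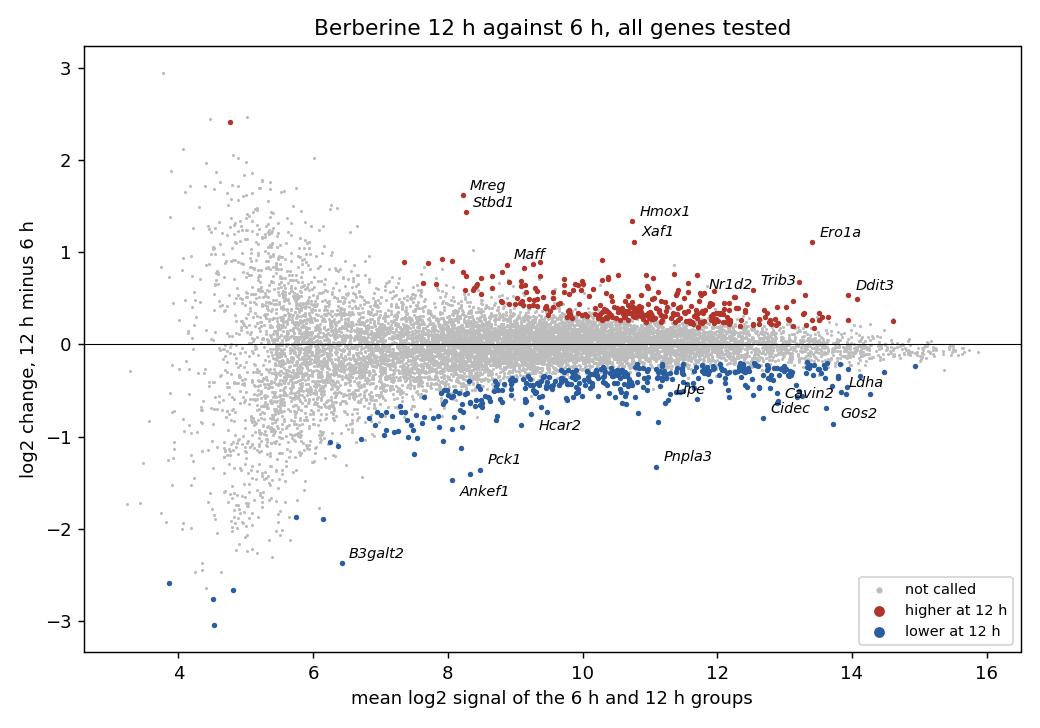
Log2 change from 6 h to 12 h (vertical axis) against the mean log2 signal of the 2 groups (horizontal axis) for 12136 genes, 1 point a gene, with genes called higher in red and lower in blue. The 304 red and 386 blue points lie mostly within 0.5 of 0 where signal is high, and Mreg, Stbd1, Hmox1, Xaf1 and Ero1a stand at the top of the brighter genes while B3galt2, Pnpla3 and Pck1 lie far below. The few called points beyond them lie at the dim end, on the left.

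The 5 largest rises among genes measured above threshold in both groups were Mreg, Stbd1, Hmox1, Xaf1 and Ero1a. Mreg (melanoregulin, which takes part in organelle transport) read 7.46, 8.02 and 6.75 on the 6 h arrays and 8.999, 8.88 and 9.20 on the 12 h arrays. It rose 3.07-fold (log2 shift 1.62 ± 0.25, adjusted p = 0.00083), and the 6 h arrays were widely spread while all 12 h arrays were higher. Stbd1, which tethers glycogen to membranes for lysosomal breakdown, read 7.74, 7.72 and 7.18 on the 6 h arrays and 8.98, 9.02 and 8.95 on the 12 h arrays. The groups did not overlap, and Stbd1 rose 2.7-fold (log2 shift 1.43 ± 0.17, adjusted p = 8.31e-05). Ero1a, the oxidase that refills protein disulfide isomerase in the endoplasmic reticulum, read 12.61, 13.00 and 12.96 on the 6 h arrays and 13.91, 14.03 and 13.95 on the 12 h arrays. All 3 of its 12 h values exceeded the highest 6 h value, a 2.16-fold rise (log2 shift 1.11 ± 0.10, adjusted p = 9.38e-06), whereas the means in DMSO (12.78), at 3 h (12.48) and at 6 h (12.86) were close to one another. Further large rises were seen for Abcc4, an exporter of cyclic nucleotides and conjugated lipids (0.91 ± 0.12, adjusted p = 0.000203), for the desaturase Scd3 (0.90 ± 0.18, adjusted p = 0.0061) and for the hedgehog co-receptor Boc (0.89 ± 0.18, adjusted p = 0.00579). Mreg, Stbd1, Ero1a and Abcc4 were called under each of the 15 alternative settings and array omissions. Scd3 was not called when its kept probe sets were averaged (adjusted p = 0.177), and Boc was not called without the intensity trend in limma (adjusted p = 0.0622).

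At the other end, the largest falls included Angptl8 and Pnpla3, which feeding is known to induce in fat and liver. Angptl8, a secreted inhibitor of lipoprotein lipase, read 8.97, 9.17 and 8.96 on the 6 h arrays and 7.90, 7.45 and 7.53 on the 12 h arrays. It fell to a level 2.66-fold lower (log2 shift -1.41 ± 0.16, adjusted p = 7.14e-05), although its means in DMSO (8.97), at 3 h (8.87) and at 6 h (9.03) had been alike. Pnpla3, a lipid droplet hydrolase under the control of SREBP-1c, read 11.82, 11.71 and 11.74 on the 6 h arrays and 10.40, 10.47 and 10.41 on the 12 h arrays. Its 6 arrays formed a pair of tight groups more than 1 log2 unit apart, 2.51-fold lower at 12 h (log2 shift -1.33 ± 0.077, adjusted p = 2.94e-08). Ankef1, an ankyrin-repeat protein, was 2.76-fold lower (log2 shift -1.47 ± 0.24, adjusted p = 0.00125) and Pdzd2, a PDZ-domain scaffold, 2.18-fold lower (log2 shift -1.12 ± 0.15, adjusted p = 0.000243). The peroxisomal fatty acid transporter Abcd2 (-1.04 ± 0.22, adjusted p = 0.0103), the membrane carboxypeptidase Cpm (-1.02 ± 0.14, adjusted p = 0.000442), the Z-disc protein Ldb3 (-1.01 ± 0.19, adjusted p = 0.00434) and the endoribonuclease Endou (-0.95 ± 0.20, adjusted p = 0.0081) fell by similar amounts. Ldb3 (adjusted p = 0.0704) was not called when probe sets were averaged, and Abcd2 (0.0797) was not called without the intensity trend. Some genes passed under the detection threshold at 12 h, so that their fall is a bound. The galactosyltransferase B3galt2 read 7.38, 7.61 and 7.84 on the 6 h arrays and 5.11, 5.51 and 5.11 on the 12 h arrays. That is at least 3.58-fold lower (adjusted p = 6.52e-06; fitted means 7.61 and 5.24), with the threshold put in place of the 12 h level. Rdh12, a retinol dehydrogenase, was at least 1.89-fold lower by the same rule (adjusted p = 0.00578), but it was not called once all dim values were set to that threshold (adjusted p = 0.0745).

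Transcription factors and cofactors of the integrated stress response were among the genes that rose after 6 h. Of 14 tested regulators, 6 rose (Atf3, Trib3, Ppp1r15a, Ddit3, Atf5 and Nupr1) and 8 were not called. The share called was 42.9%, against 5.69% of all genes, and the median change of the list was 0.23, against -0.013 over all genes. Trib3, a pseudokinase that is a target of CHOP and binds AKT, read 12.17, 12.16 and 12.38 on the 6 h arrays and 12.77, 12.88 and 12.83 on the 12 h arrays. The 12 h arrays were all higher, by 1.51-fold (log2 shift 0.59 ± 0.097, adjusted p = 0.00134), after means of 10.29 in DMSO and 11.08 at 3 h. Ddit3, which encodes CHOP, read 13.60, 13.66 and 13.79 on the 6 h arrays and 14.17, 14.27 and 14.19 on the 12 h arrays. It rose 1.44-fold without overlap (log2 shift 0.53 ± 0.060, adjusted p = 7.14e-05), and its level had climbed from 11.79 in DMSO through 12.63 at 3 h. Atf3, a stress-induced repressor, read 8.68, 8.52 and 8.96 on the 6 h arrays and 9.37, 9.55 and 9.71 on the 12 h arrays. Its rise was 1.77-fold (log2 shift 0.82 ± 0.21, adjusted p = 0.0296). Ppp1r15a, which encodes GADD34, the phosphatase subunit that reverses eIF2alpha phosphorylation, rose 1.48-fold (log2 shift 0.56 ± 0.13, adjusted p = 0.0139). Smaller rises were those of Atf5 (0.39 ± 0.072, adjusted p = 0.00335), which drives the mitochondrial stress response, and of the chromatin protein Nupr1 (0.27 ± 0.055, adjusted p = 0.00741). Atf4 itself read 13.72, 13.78 and 13.88 on the 6 h arrays and 13.81, 13.90 and 13.82 on the 12 h arrays, so its groups overlapped and it was not called (log2 shift 0.048 ± 0.067, adjusted p = 0.769). Atf3 lost its call without 12 h array 2 or 3 or 6 h array 1 or 2 (adjusted p = 0.0813 to 0.123). Ppp1r15a lost its call without 12 h array 2 or 6 h array 1 or 2 (adjusted p = 0.0593 to 0.0695). Without the intensity trend, neither Atf3 (adjusted p = 0.108) nor Ppp1r15a (0.0647) was called. Ddit3 was not called when its probe sets were averaged (adjusted p = 0.133), while Trib3, Atf5 and Nupr1 were called under each of the 15 alternatives.

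Most effector genes of the same response were not called, and the called ones were lower. Of 16 tested, 2 fell (12.5%, against 3.18% of all genes), Ddit4 and Chac1, and 14 were not called. A positive change was seen in 8, and the median change was -0.006. Chac1, a glutathione-degrading enzyme, read 11.24, 11.14 and 11.49 on the 6 h arrays and 10.83, 10.99 and 10.99 on the 12 h arrays. All 12 h arrays were lower (log2 shift -0.35 ± 0.085, adjusted p = 0.0209), down from the 6 h mean of 11.29 to 10.94, the level it had at 3 h (10.94), with 9.84 in DMSO. Ddit4, an inhibitor of mTORC1, read 11.51, 11.42 and 11.79 on the 6 h arrays and 11.09, 11.03 and 10.99 on the 12 h arrays. It fell to a level 1.45-fold lower (log2 shift -0.54 ± 0.13, adjusted p = 0.0256). Its mean was 12.07 in DMSO and already lower, 11.22, at 3 h. Chac1 lost its call without 12 h array 1 or 6 h array 3 (adjusted p = 0.0924 to 0.0974). Ddit4 lost its call without 12 h array 1, 2 or 3 or 6 h array 1 or 3 (adjusted p = 0.0527 to 0.115). In neighbouring lists, Got1 and Aldh1l2 rose among 13 genes of serine, asparagine and one-carbon synthesis, Lars and Eprs among 19 aminoacyl-tRNA synthetases, and Slc1a5 among 12 amino acid transporters, with median changes of -0.028, 0.036 and -0.071. These lists had 15.4%, 10.5% and 8.33% called, against 5.69% of all genes. Lars, which loads leucine onto tRNA, read 11.86, 11.79 and 11.87 on the 6 h arrays and 12.12, 12.19 and 12.22 on the 12 h arrays. The leucyl enzyme's 12 h arrays lay above its 6 h arrays (log2 shift 0.33 ± 0.069, adjusted p = 0.00828), as did those of Eprs for glutamate and proline (log2 shift 0.33 ± 0.068, adjusted p = 0.00787). Got1 lost its call without 6 h array 2 (adjusted p = 0.0597). Without the intensity trend, Lars (adjusted p = 0.0558), Eprs (0.0622), Aldh1l2 (0.0885), Slc1a5 (0.0994), Chac1 (0.0881) and Ddit4 (0.14) were not called. Aldh1l2 lost its call without 12 h array 3 or 6 h array 2 or 3 (adjusted p = 0.0545 to 0.111). Slc1a5 lost its call without 12 h array 2 or 3 or 6 h array 2 or 3 (adjusted p = 0.0582 to 0.108). Ddit4 (adjusted p = 0.0512), Eprs (0.26) and Slc1a5 (0.127) were not called when probe sets were averaged.

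The promoters of Atf3 and Chac1 are shown because a regulator that rose and an effector that fell carry the same motif, TGATGNAA, the C/EBP-ATF response element that ATF4 and CHOP dimers recognise. The calls of Atf3 and Chac1 rest on single arrays, as given above. Of the other called regulators and effectors, Nupr1 holds the motif in the 250 bases before the start site, and Trib3, Ppp1r15a, Ddit3, Atf5 and Ddit4 do not. Bases further upstream were not searched, so these genes may hold the motif elsewhere. The bases come from RefSeq's GRCm38.p6 annotation, are given 5′ to 3′ on the gene's strand, and hold the motif, here read as its reverse complement, in capitals. The Atf3 stretch is chr1:191183396-191183483 (minus strand, bases 150 to 63 before the start site), and that of Chac1 is chr2:119351009-119351096 (plus strand, bases 233 to 146 before the start site).
Atf3: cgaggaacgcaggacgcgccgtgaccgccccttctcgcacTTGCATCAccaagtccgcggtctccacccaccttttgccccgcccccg
Chac1: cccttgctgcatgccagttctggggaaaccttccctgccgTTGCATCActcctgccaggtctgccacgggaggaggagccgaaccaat
On either strand of the window from 250 bases before to 50 after the start site, TGATGNAA was found in 10 of 248 promoters of genes that rose (4.03%), 8 of 305 of genes that fell (2.62%) and 215 of 9806 of all genes tested (2.19%). The cyclic AMP element TGACGTCA was found in 4.44%, 2.95% and 3.14%, and TTATGTAA, a site of PAR bZIP factors such as DBP, in 1.21%, 0% (0 of 305, with an exact 95% upper bound of 1.2%) and 0.449%. These shares are descriptions of the letters in the window, and no test was made on them.

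Antioxidant genes controlled by NRF2 included Hmox1, among the largest rises of all. Of 17 tested, 4 rose (Hmox1, Srxn1, Mafg and Gclm) and 13 were not called (23.5% called, against 5.69% of all genes). The median change was 0.15. Hmox1, which encodes haem oxygenase 1, read 10.00, 10.01 and 10.21 on the 6 h arrays and 11.46, 11.56 and 11.20 on the 12 h arrays. It rose 2.52-fold (log2 shift 1.33 ± 0.11, adjusted p = 3.09e-06), more than it had from DMSO (9.02) to 3 h (9.29) or from 3 h to 6 h (10.07), and it was called under each of the 15 alternatives. Srxn1, the sulfiredoxin that reactivates peroxiredoxins, read 9.69, 9.41 and 9.72 on the 6 h arrays and 10.32, 10.29 and 10.15 on the 12 h arrays. Its 12 h arrays were higher by 1.57-fold (log2 shift 0.65 ± 0.096, adjusted p = 0.000601). Gclm, the modifier subunit of glutamate-cysteine ligase, rose 1.27-fold (log2 shift 0.35 ± 0.070, adjusted p = 0.00735), and the small MAF protein Mafg, a partner of NRF2, rose 1.32-fold (log2 shift 0.40 ± 0.10, adjusted p = 0.0287). Averaging of probe sets left 1 called member, since Srxn1 (adjusted p = 0.286), Gclm (0.0605) and Mafg (0.121) were then not called. Mafg lost its call without 12 h array 1, 2 or 3 or 6 h array 1 or 2 (adjusted p = 0.0519 to 0.121). The cystine carrier Slc7a11, on the same list, read 7.46, 7.14 and 7.76 on the 6 h arrays and 7.60, 8.23 and 7.77 on the 12 h arrays and was not called (log2 shift 0.41 ± 0.28, adjusted p = 0.475).

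Protein-folding genes were called in both directions. Among 20 chaperones and unfolded protein response genes, Edem1 and Sel1l rose and Dnajb9 fell (3 of 20, against 5.69% of all genes), with a median of -0.075. Edem1, which extracts misfolded glycoproteins for degradation, read 11.70, 11.62 and 11.67 on the 6 h arrays and 11.95, 12.07 and 12.31 on the 12 h arrays, a 1.36-fold rise without overlap (log2 shift 0.45 ± 0.080, adjusted p = 0.00297). Sel1l, the scaffold of the HRD1 ubiquitin ligase, rose 1.25-fold (log2 shift 0.33 ± 0.060, adjusted p = 0.00355), and the co-chaperone Dnajb9 was 1.17-fold lower (log2 shift -0.22 ± 0.058, adjusted p = 0.0306). Of 14 cytosolic heat shock genes (7.14% called), Hspb8 rose (0.50 ± 0.10, adjusted p = 0.00757). Of 14 mitochondrial chaperones and proteases (7.14% called), Oma1, the inner membrane protease that senses lost membrane potential, fell. It read 9.68, 9.65 and 9.39 on the 6 h arrays and 9.13, 8.98 and 9.06 on the 12 h arrays, with no overlap (log2 shift -0.52 ± 0.10, adjusted p = 0.00522), and its DMSO mean was 9.55. Dnajb9 lost its call without 12 h array 1, 2 or 3 or 6 h array 1 or 2 (adjusted p = 0.0514 to 0.117). Averaged over probe sets, Sel1l (adjusted p = 0.479) and Hspb8 (0.0683) were not called, and another kept probe set of Sel1l had the opposite sign.

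Interferon-stimulated genes had mostly positive changes, 4 of which passed the test. Of 21 tested, 4 rose (Xaf1, Oasl2, Ifit2 and Ifi35) and 17 were not called (19.0% called, against 5.69% of all genes). A positive change was seen in 20, and the median was 0.49, against -0.013 over all genes. The groups did not overlap in 8 of the 21, against 23.4% of all genes. Xaf1, an antagonist of the inhibitor of apoptosis XIAP, read 9.84, 10.00 and 10.80 on the 6 h arrays and 11.26, 11.52 and 11.19 on the 12 h arrays. Its rise was 2.16-fold (log2 shift 1.11 ± 0.21, adjusted p = 0.00402), and 6 h array 3 stood well above the other 6 h arrays. Oasl2, an oligoadenylate synthetase-like protein, read 6.98, 7.39 and 8.00 on the 6 h arrays and 8.23, 8.48 and 8.43 on the 12 h arrays. The same array was again the highest of its group, and the rise was 1.9-fold (log2 shift 0.92 ± 0.25, adjusted p = 0.0369). Ifit2, which binds viral RNA, and Ifi35 changed by 0.57 ± 0.15, adjusted p = 0.0377 and 0.43 ± 0.11, adjusted p = 0.0324, and the groups overlapped for Ifi35. Herc6, a ubiquitin ligase (0.87 ± 0.20, adjusted p = 0.0134), and Slfn2, a Schlafen protein of immune cells (0.89 ± 0.25, adjusted p = 0.0469), were among the 15 largest rises. The count rested on single arrays: 1 member was called without 12 h array 1, 12 h array 2, 6 h array 1 or 6 h array 2, and 5 without 6 h array 3. Oasl2 lost its call without 12 h array 1, 2 or 3 or 6 h array 1 or 2 (adjusted p = 0.0616 to 0.15). Ifit2 lost its call without 12 h array 1 or 2 or 6 h array 1 or 2 (adjusted p = 0.0863 to 0.162). Ifi35 lost its call without 12 h array 1 or 2 or 6 h array 1 or 2 (adjusted p = 0.0595 to 0.145). Herc6 lost its call without 12 h array 2 or 6 h array 1 or 2 (adjusted p = 0.0543 to 0.0757). Slfn2 lost its call without 12 h array 1, 2 or 3 or 6 h array 1 or 2 (adjusted p = 0.0542 to 0.172). Oasl2 (adjusted p = 0.0548), Ifit2 (0.0607), Herc6 (0.145) and Slfn2 (0.0715) were not called when probe sets were averaged. Without the intensity trend Xaf1 had an adjusted p of 0.0664 and no member was called. Herc6 (adjusted p = 0.0937) and Slfn2 (0.134) were not called in that fit either. The inflammatory genes of the NF-kB list had 0 of 20 called in limma's test (3 at an unadjusted p under 0.05), and Il6 read 7.57, 7.16 and 7.41 on the 6 h arrays and 7.77, 7.69 and 7.86 on the 12 h arrays (log2 shift 0.39 ± 0.21, adjusted p = 0.326).

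**Figure D2:**
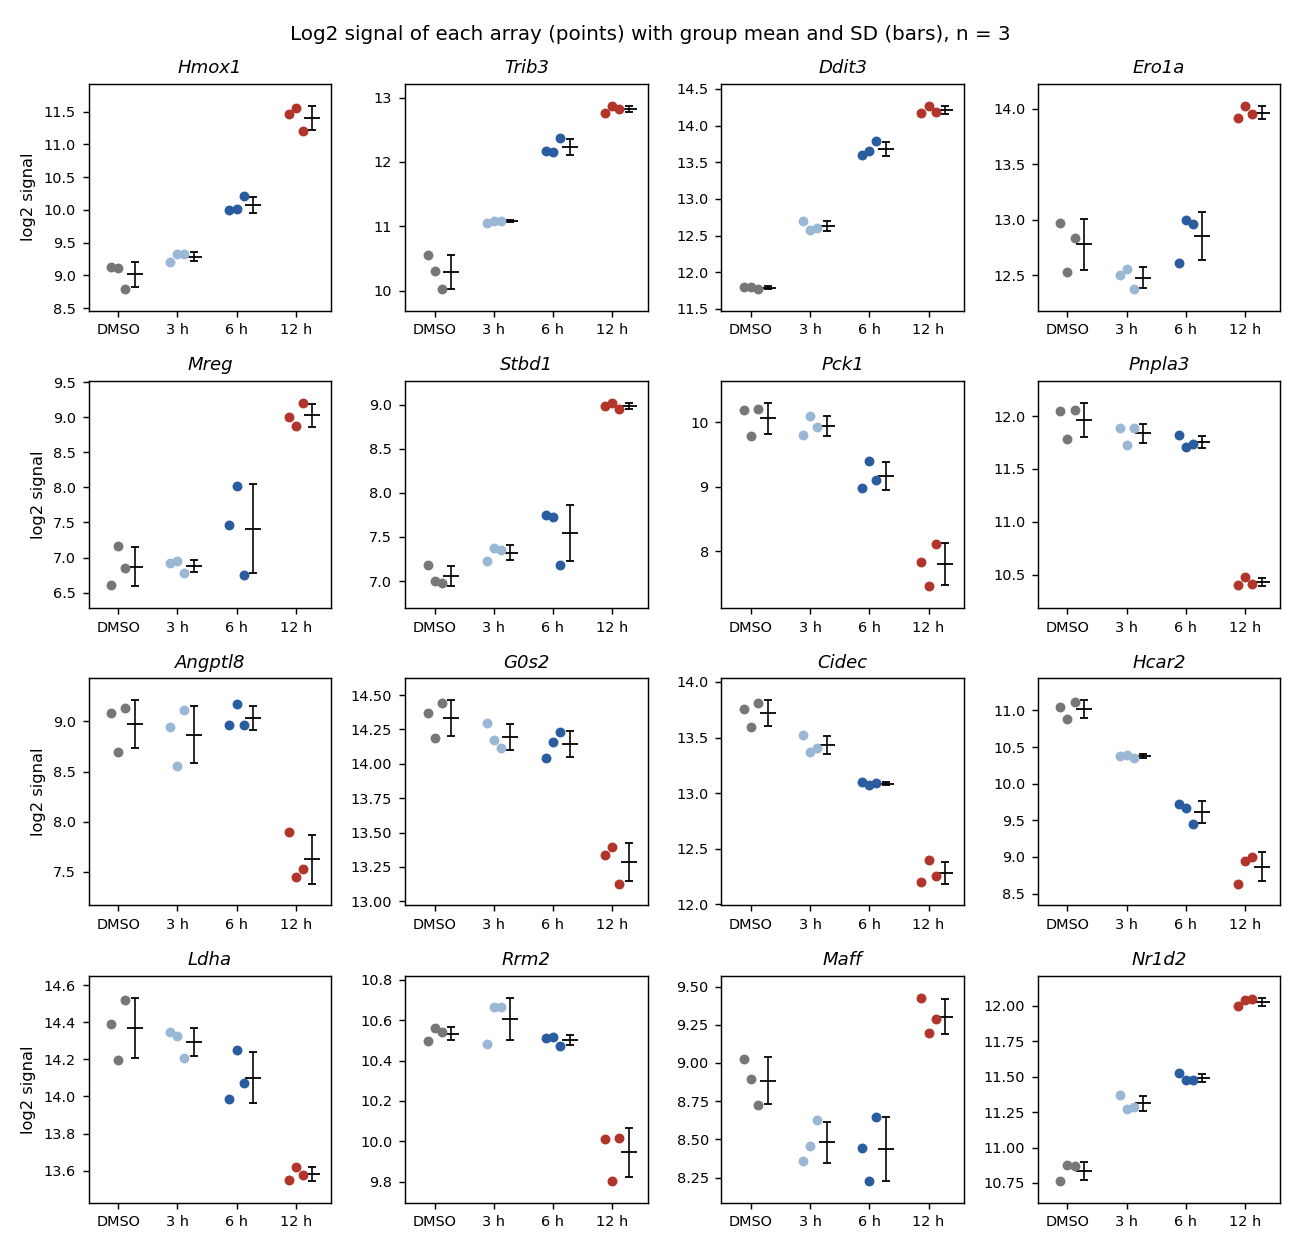
Log2 signal of 16 named genes on each of the 12 arrays (points, 3 a group, left to right DMSO and berberine for 3, 6 and 12 h) with the mean and SD of each group (bar beside the points), each panel on its own vertical scale. The red 12 h points are separate from the blue 6 h points in every panel, Hmox1, Trib3 and Ddit3 climb at each time, and Ero1a, Pnpla3, Angptl8, G0s2 and Rrm2 leave the range of the earlier groups only at 12 h.

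Triglyceride synthesis was the role of several genes that fell. Of 15 tested, 5 fell (Pck1, Aqp7, Gpd1, Agpat2 and Lpin1) and 10 were not called (33.3% called, against 5.69% of all genes). All 15 changes were negative, and the median was -0.28. Pck1, phosphoenolpyruvate carboxykinase, which supplies glycerol phosphate in fat cells, read 8.99, 9.40 and 9.10 on the 6 h arrays and 7.83, 7.46 and 8.12 on the 12 h arrays. It was 2.56-fold lower (log2 shift -1.36 ± 0.16, adjusted p = 7.14e-05) after means of 10.06 in DMSO, 9.94 at 3 h and 9.16 at 6 h. Gpd1, glycerol-3-phosphate dehydrogenase, read 13.52, 13.42 and 13.45 on the 6 h arrays and 12.87, 12.90 and 12.90 on the 12 h arrays. Its groups were far apart relative to their spread (log2 shift -0.57 ± 0.080, adjusted p = 0.000411). Agpat2, the acyltransferase lost in a form of congenital lipodystrophy, read 13.38, 13.50 and 13.53 on the 6 h arrays and 12.85, 13.01 and 13.03 on the 12 h arrays. It fell to a level 1.42-fold lower (log2 shift -0.51 ± 0.068, adjusted p = 0.00027), from a 6 h mean of 13.47 that was near the DMSO mean of 13.49. The glycerol channel Aqp7 (-0.94 ± 0.20, adjusted p = 0.0112) and the phosphatidate phosphatase Lpin1 (-0.29 ± 0.076, adjusted p = 0.0337) were lower too. Aqp7 lost its call without 12 h array 2 or 6 h array 3 (adjusted p = 0.0521 to 0.0582). Lpin1 lost its call without 12 h array 1, 2 or 3 or 6 h array 1 or 3 (adjusted p = 0.0684 to 0.134). Lpin1 (adjusted p = 0.104) was not called when probe sets were averaged. Gpd1 has another kept probe set of opposite sign and was not called when probe sets were averaged (adjusted p = 0.882), while Pck1 and Agpat2 were called under each of the 15 alternatives.

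Genes of the lipid droplet and of lipolysis were called in both directions, mostly lower. Of 11 tested, 5 fell (G0s2, Cidec, Mgll, Lipe and Plin4), Plin2 rose and 5 were not called. The share called was 54.5%, against 5.69% of all genes, and the median was -0.25. G0s2, the inhibitor of ATGL, read 14.05, 14.16 and 14.23 on the 6 h arrays and 13.33, 13.39 and 13.13 on the 12 h arrays. It was 1.81-fold lower at 12 h (log2 shift -0.86 ± 0.080, adjusted p = 9.26e-06), while its DMSO, 3 h and 6 h means lay between 14.33 and 14.15. Cidec, which fuses droplets into larger ones, read 13.10, 13.07 and 13.09 on the 6 h arrays and 12.20, 12.40 and 12.26 on the 12 h arrays. Its 12 h level was 1.74-fold lower (log2 shift -0.80 ± 0.068, adjusted p = 4.22e-06), after a DMSO mean of 13.72. Lipe, hormone-sensitive lipase, read 11.81, 11.49 and 11.41 on the 6 h arrays and 10.95, 10.87 and 11.09 on the 12 h arrays. Every 12 h array was lower (log2 shift -0.60 ± 0.085, adjusted p = 0.000442). Mgll, which splits the last fatty acid from glycerol, was 1.73-fold lower (log2 shift -0.79 ± 0.16, adjusted p = 0.00736) and the coat protein Plin4 1.26-fold lower (log2 shift -0.34 ± 0.085, adjusted p = 0.0271). Plin2, the coat protein of small droplets that most cells express, moved the other way, with 13.39, 13.44 and 13.41 on the 6 h arrays and 13.68, 13.79 and 13.64 on the 12 h arrays (log2 shift 0.29 ± 0.064, adjusted p = 0.0119). Plin4 lost its call without 12 h array 2 or 3 or 6 h array 1 or 2 (adjusted p = 0.0674 to 0.114). Plin2 lost its call without 12 h array 2 (adjusted p = 0.0639). Without the intensity trend, Mgll (adjusted p = 0.0512), Plin2 (0.0706) and Plin4 (0.129) were not called. G0s2, Cidec and Lipe were called under each of the 15 alternatives.

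Receptors that adjust lipolysis to metabolites were also called lower. Of 5 tested, 3 fell (Hcar1, Sucnr1 and Hcar2), with a list median of -0.75. Hcar2, the receptor for beta-hydroxybutyrate and niacin, read 9.73, 9.67 and 9.45 on the 6 h arrays and 8.64, 8.95 and 9.005 on the 12 h arrays. It continued a fall seen at each time, from 11.02 in DMSO and 10.38 at 3 h, and was 1.68-fold lower at 12 h than at 6 h (log2 shift -0.75 ± 0.10, adjusted p = 0.000317). Sucnr1, the succinate receptor, read 8.18, 8.25 and 8.30 on the 6 h arrays and 7.35, 7.59 and 7.47 on the 12 h arrays. Its groups did not overlap (log2 shift -0.78 ± 0.13, adjusted p = 0.0017), and it was 1.71-fold lower. The lactate receptor Hcar1 passed under the detection threshold at 12 h and was at least 1.82-fold lower (adjusted p = 0.0342; measured means 6.79 and 5.73). Hcar1 lost its call without 12 h array 2 or 3 or 6 h array 1 or 2 (adjusted p = 0.0749 to 0.135). The fatty acid receptor Ffar4 had lower values on all 12 h arrays, 8.28, 7.96 and 8.32 on the 6 h arrays and 7.68, 7.86 and 7.65 on the 12 h arrays, and did not pass the test (log2 shift -0.45 ± 0.14, adjusted p = 0.0682).

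Fatty acid synthesis genes moved in both directions. Of 18 tested, 5 fell (Pnpla3, Thrsp, Fasn, Srebf1 and Insig1), Elovl6 and Me1 rose and 11 were not called. The share called was 38.9%, against 5.69% of all genes, and the median was -0.020. Thrsp, the lipogenic protein Spot 14, read 14.14, 14.18 and 14.13 on the 6 h arrays and 13.68, 13.77 and 13.62 on the 12 h arrays. It was 1.38-fold lower without overlap (log2 shift -0.46 ± 0.076, adjusted p = 0.00129). Srebf1, the master regulator of the pathway, fell by a comparable amount (-0.35 ± 0.066, adjusted p = 0.0041), and so did fatty acid synthase, Fasn (-0.44 ± 0.095, adjusted p = 0.0112). Insig1, which retains SREBPs in the endoplasmic reticulum, read 13.56, 13.65 and 13.57 on the 6 h arrays and 13.29, 13.23 and 13.26 on the 12 h arrays. It had risen from 13.24 in DMSO to 13.59 at 6 h and came back to 13.26 (log2 shift -0.34 ± 0.059, adjusted p = 0.00221). Elovl6, the elongase that makes stearate, went the opposite way with 8.37, 8.14 and 8.34 on the 6 h arrays and 8.93, 9.10 and 9.03 on the 12 h arrays. That rise was 1.67-fold (log2 shift 0.74 ± 0.12, adjusted p = 0.000947), and malic enzyme, Me1, rose 1.24-fold (log2 shift 0.31 ± 0.082, adjusted p = 0.0345). Fasn lost its call without 12 h array 1 or 6 h array 3 (adjusted p = 0.0505 to 0.0567). Me1 lost its call without 12 h array 2 or 3 or 6 h array 1, 2 or 3 (adjusted p = 0.0656 to 0.117). Me1 (adjusted p = 0.205) was not called when probe sets were averaged. Pnpla3, Thrsp, Srebf1, Insig1 and Elovl6 were called under each of the 15 alternatives.

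Cholesterol genes were split too. Of 22 tested, Idi1, Sqle and Lss rose, Tm7sf2 and Insig1 fell and 17 were not called (22.7% called, against 5.69% of all genes). The median was -0.082. Idi1, isopentenyl diphosphate isomerase, read 13.02, 12.90 and 13.20 on the 6 h arrays and 13.53, 13.51 and 13.67 on the 12 h arrays, a 1.45-fold rise (log2 shift 0.53 ± 0.10, adjusted p = 0.00468). Squalene epoxidase, Sqle (0.37 ± 0.084, adjusted p = 0.0136), and lanosterol synthase, Lss (0.31 ± 0.083, adjusted p = 0.0367), rose less, and the sterol reductase Tm7sf2 fell (-0.42 ± 0.096, adjusted p = 0.014). Without the intensity trend, Idi1 (adjusted p = 0.0647), Sqle (0.0947), Lss (0.119) and Tm7sf2 (0.0622) were not called. Sqle lost its call without 12 h array 2 or 6 h array 1 or 2 (adjusted p = 0.0527 to 0.0763). Lss lost its call without 12 h array 2 or 3 or 6 h array 1, 2 or 3 (adjusted p = 0.0669 to 0.136). Tm7sf2 lost its call without 12 h array 1 or 6 h array 2 or 3 (adjusted p = 0.0539 to 0.0693). Lss (adjusted p = 0.136) was not called when probe sets were averaged, and it has a kept probe set of opposite sign. Npc1, the lysosomal cholesterol exporter, was the called member among 32 lysosome and folliculin genes and read 8.50, 8.74 and 8.48 on the 6 h arrays and 9.18, 9.22 and 9.36 on the 12 h arrays. Its 12 h arrays were all higher, by 1.6-fold (log2 shift 0.68 ± 0.12, adjusted p = 0.00335). The lysosome and folliculin list had 3.12% called, against 5.69% of all genes. Acsl4, the acyl-CoA synthetase that prefers arachidonate, rose among 13 genes of fatty acid uptake and activation, where Angptl4 fell, and read 10.77, 10.98 and 11.19 on the 6 h arrays and 11.57, 11.74 and 11.93 on the 12 h arrays. The rise was 1.7-fold without overlap (log2 shift 0.76 ± 0.11, adjusted p = 0.000411). Of the uptake and activation list 15.4% was called, against 5.69% of all genes. Angptl4 lost its call without 6 h array 1 (adjusted p = 0.0587). Angptl4 (adjusted p = 0.641) was not called when probe sets were averaged.

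Fatty acid oxidation genes had mostly negative changes, with a median of -0.17 over 22 tested genes. Cpt2, Etfdh, Slc25a20, Acaa2 and Hadhb fell, Acot2 rose and 16 were not called (27.3% called, against 5.69% of all genes). Etfdh, which passes electrons from fatty acid oxidation to ubiquinone, read 12.35, 12.30 and 12.26 on the 6 h arrays and 11.88, 11.95 and 11.98 on the 12 h arrays. All 12 h arrays were lower (log2 shift -0.37 ± 0.071, adjusted p = 0.00509). Acot2, a mitochondrial acyl-CoA thioesterase and a PPAR target, read 11.09, 11.46 and 11.41 on the 6 h arrays and 11.97, 12.26 and 11.98 on the 12 h arrays. It rose 1.68-fold (log2 shift 0.75 ± 0.12, adjusted p = 0.000896) and was called, like Etfdh, under each of the 15 alternatives. The carnitine enzyme Cpt2 (-0.37 ± 0.081, adjusted p = 0.011), the carnitine carrier Slc25a20 (-0.31 ± 0.079, adjusted p = 0.0289) and the thiolases Acaa2 (-0.25 ± 0.071, adjusted p = 0.0473) and Hadhb (-0.22 ± 0.064, adjusted p = 0.0473) changed by less than 0.4. Cpt2 lost its call without 6 h array 1 (adjusted p = 0.0585). Slc25a20 lost its call without 12 h array 1 or 2 or 6 h array 2 or 3 (adjusted p = 0.085 to 0.152). Acaa2 lost its call without 12 h array 1 or 3 or 6 h array 1, 2 or 3 (adjusted p = 0.0837 to 0.166). Hadhb lost its call without each of the 6 arrays in turn (adjusted p = 0.0642 to 0.153). Cpt2 (adjusted p = 0.926), Acaa2 (0.0655) and Hadhb (0.756) were not called when probe sets were averaged, and Cpt2 and Hadhb each have a kept probe set of opposite sign.

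**Figure D3:**
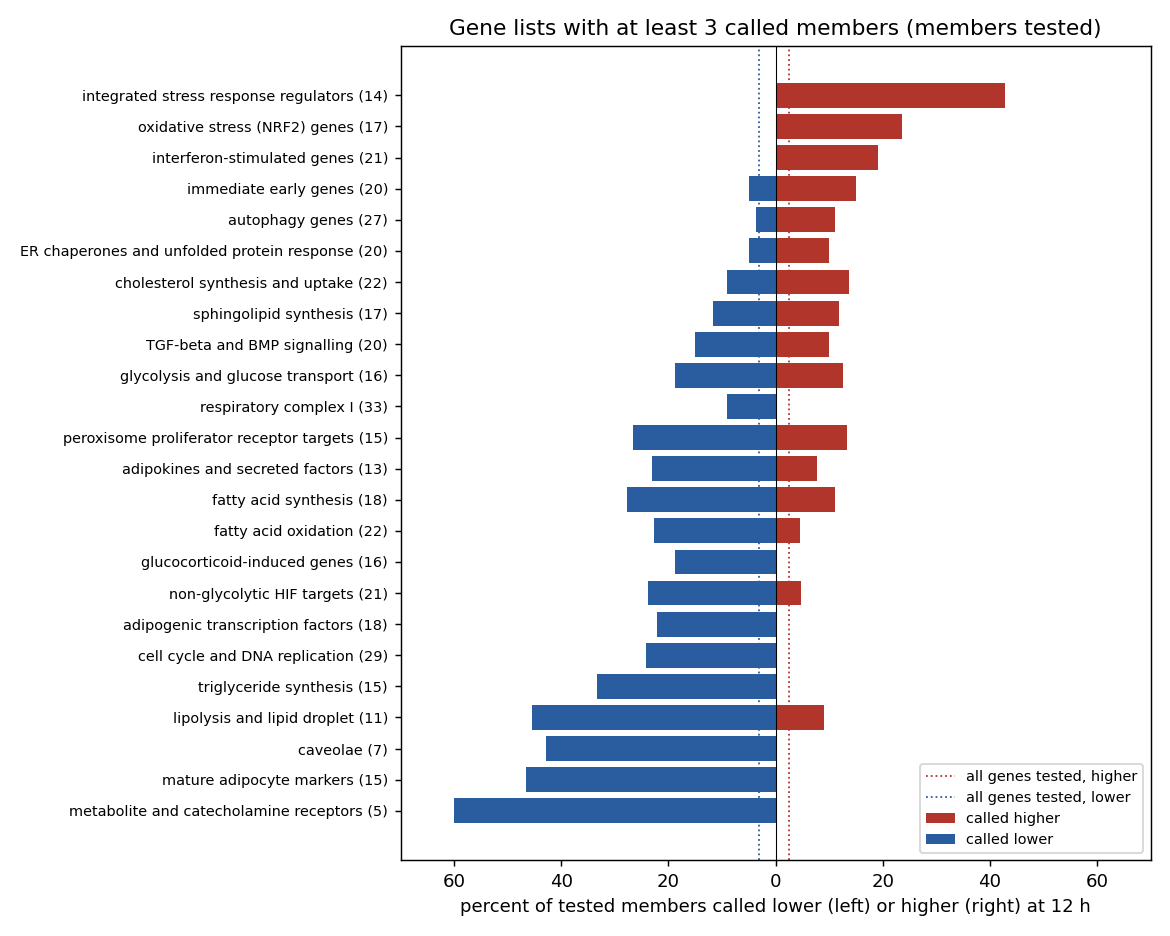
Percent of the tested members of each gene list called lower (blue, to the left) or higher (red, to the right) at 12 h, for the lists with at least 3 called members, with the number tested in parentheses and the percent over all genes as dotted lines (2.5 higher, 3.18 lower). Stress regulator, NRF2 and interferon lists extend to the right without blue, and receptors, adipocyte markers, caveolae, triglyceride synthesis, cell cycle and adipogenic factors extend to the left without red.

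Markers of the mature adipocyte were called lower where they were called. Of 15 tested, 7 fell (Aqp7, Cidec, Lipe, Retn, Agpat2, Cebpa and Pparg) and 8 were not called (46.7% called, against 5.69% of all genes). All 15 changes were negative and the median was -0.30. Retn, the adipokine resistin, read 14.45, 14.76 and 14.42 on the 6 h arrays and 13.99, 14.17 and 13.85 on the 12 h arrays. It was 1.45-fold lower without overlap (log2 shift -0.54 ± 0.11, adjusted p = 0.0063), but was not called without the intensity trend (adjusted p = 0.0766). Pparg, the nuclear receptor that maintains the fat cell, read 13.31, 13.35 and 13.10 on the 6 h arrays and 12.89, 12.95 and 13.03 on the 12 h arrays (log2 shift -0.30 ± 0.067, adjusted p = 0.0136). Cebpa, its partner, read 10.63, 10.54 and 10.67 on the 6 h arrays and 10.15, 10.31 and 10.36 on the 12 h arrays (log2 shift -0.34 ± 0.075, adjusted p = 0.0112). Pparg was 1.23-fold lower and Cebpa 1.27-fold lower. Adiponectin, Adipoq, the hormone of fat cells, read 15.47, 15.62 and 15.49 on the 6 h arrays and 15.47, 15.52 and 15.34 on the 12 h arrays (log2 shift -0.084 ± 0.098, adjusted p = 0.709), and the fatty acid carrier Fabp4 read 15.82, 16.02 and 15.89 on the 6 h arrays and 15.88, 15.87 and 15.75 on the 12 h arrays (log2 shift -0.079 ± 0.082, adjusted p = 0.665). Their groups overlapped and neither was called. The 3 other kept probe sets of Fabp4, which are dimmer, changed by -0.35 to -0.29 and were not called (adjusted p = 0.151 to 0.406). In the list of adipogenic transcription factors, Klf15 (-0.41 ± 0.10, adjusted p = 0.0246) and the liver X receptor Nr1h3 (-0.36 ± 0.10, adjusted p = 0.0451) fell beside Cebpa and Pparg. In that list 14 of 18 were not called (22.2% called, against 5.69% of all genes), and the median was -0.16. Aqp7 lost its call without 12 h array 2 or 6 h array 3 (adjusted p = 0.0521 to 0.0582). Cebpa lost its call without 12 h array 1 (adjusted p = 0.0593). Pparg lost its call without 12 h array 1 or 6 h array 1 or 2 (adjusted p = 0.062 to 0.0812). Klf15 lost its call without 12 h array 1 or 2 or 6 h array 1 or 2 (adjusted p = 0.0657 to 0.131). Nr1h3 lost its call without 12 h array 1 or 3 or 6 h array 1, 2 or 3 (adjusted p = 0.0588 to 0.16). Without the intensity trend, Pparg (adjusted p = 0.08), Klf15 (0.119) and Nr1h3 (0.0599) were not called either. The adipogenic list had 0 called members without 12 h array 1 (1 without 6 h array 1 or 6 h array 2), so its count rests on single arrays.

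Other secreted factors and cell types were read beside these. Nampt, which makes NAD and is secreted as visfatin, read 12.82, 12.78 and 12.86 on the 6 h arrays and 13.15, 13.28 and 13.25 on the 12 h arrays and rose 1.32-fold (log2 shift 0.41 ± 0.059, adjusted p = 0.000472). Angptl4, an inhibitor of lipoprotein lipase (-0.36 ± 0.080, adjusted p = 0.0124), and angiotensinogen, Agt (-0.24 ± 0.066, adjusted p = 0.0367), fell. Angptl4 lost its call without 6 h array 1 (adjusted p = 0.0587). Agt lost its call without each of the 6 arrays in turn (adjusted p = 0.0507 to 0.12). Nampt (adjusted p = 0.158) and Angptl4 (0.641) were not called when probe sets were averaged. The other kept probe sets of Nampt changed by 0.084 and 0.153. The summed linear signal of the 15 adipocyte markers was 240791 to 262040 at 6 h and 210256 to 228594 at 12 h, and it was 203724 to 252565 in DMSO. That of 16 fibroblast and preadipocyte markers was 185711 to 196072 at 6 h and 183885 to 198675 at 12 h, and 0 of 15 tested were called in limma's test (2 at an unadjusted p under 0.05). Both sums are weighted toward the brightest probe sets of their list. Macrophage markers had 0 of 5 called (0 at an unadjusted p under 0.05), and 8 of 14, among them Adgre1, Ptprc and Itgam, were under the threshold on all 6 arrays. Endothelial markers had 0 of 4 called (0 at an unadjusted p under 0.05), with Cdh5 and Tek among 5 of 12 under the threshold, and brown fat markers 0 of 7 (3 at an unadjusted p under 0.05), with Ucp1 among 6 of 14 under it. Cells carried adipocyte and fibroblast markers on all arrays, as 3T3-L1 cultures are known to do.

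Caveolae are surface pits that cover a large part of the fat cell. Of 7 genes, Cavin2, Cavin1 and Ehd2 fell and 4 were not called (42.9% called, against 5.69% of all genes), with a median of -0.12. Cavin2, a coat protein that shapes caveolae, read 13.11, 13.24 and 13.27 on the 6 h arrays and 12.66, 12.53 and 12.52 on the 12 h arrays. It was 1.56-fold lower (log2 shift -0.64 ± 0.061, adjusted p = 1.15e-05) and was called under each of the 15 alternatives. Cavin1, without which caveolae do not form, read 13.11, 13.18 and 13.16 on the 6 h arrays and 12.67, 12.58 and 12.61 on the 12 h arrays. The groups were 0.53 apart on the log2 scale (1.44-fold lower, adjusted p = 1.23e-05), but another kept probe set had the opposite sign and the averaged value was not called (adjusted p = 0.648). Ehd2, at the caveolar neck, changed by -0.28 ± 0.072, adjusted p = 0.0279. Ehd2 lost its call without 12 h array 2 or 3 or 6 h array 1 or 2 (adjusted p = 0.0546 to 0.125). Ehd2 (adjusted p = 0.398) was not called when probe sets were averaged, and it has a kept probe set of opposite sign. Averaging thus left 1 called member of the 7.

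Oxygen-sensing genes were called mostly lower, with Ero1a as the exception. Of 21 targets of hypoxia-inducible factor outside glycolysis, 5 fell (Egln3, Pdk1, Egln1, Bnip3 and Higd1a), Ero1a rose and 15 were not called. The share called was 28.6%, against 5.69% of all genes, and the median was -0.053. Egln3, a prolyl hydroxylase that marks HIF for destruction and is itself a HIF target, read 10.83, 11.10 and 10.99 on the 6 h arrays and 10.33, 10.42 and 10.22 on the 12 h arrays. It was 1.57-fold lower (log2 shift -0.65 ± 0.11, adjusted p = 0.00185) and had been 12.31 in DMSO and 11.64 at 3 h. Pdk1, a kinase that inhibits pyruvate dehydrogenase, read 11.61, 11.84 and 11.68 on the 6 h arrays and 11.08, 11.23 and 11.27 on the 12 h arrays. It too was lower on all 12 h arrays (log2 shift -0.52 ± 0.084, adjusted p = 0.00125). The hydroxylase Egln1 (-0.51 ± 0.15, adjusted p = 0.049), the mitophagy receptor Bnip3 (-0.36 ± 0.079, adjusted p = 0.0119) and the respiratory chain protein Higd1a (-0.33 ± 0.093, adjusted p = 0.0451) completed the list, and Ankrd37 read 6.33, 7.23 and 6.84 on the 6 h arrays and 6.45, 6.68 and 6.69 on the 12 h arrays (log2 shift -0.19 ± 0.23, adjusted p = 0.721). Egln1 lost its call without 12 h array 1, 2 or 3 or 6 h array 1 or 2 (adjusted p = 0.0559 to 0.203). Bnip3 lost its call without 12 h array 3 or 6 h array 2 (adjusted p = 0.0504 to 0.0733). Higd1a lost its call without 12 h array 1, 2 or 3 or 6 h array 2 or 3 (adjusted p = 0.065 to 0.192). Averaged over its probe sets, Egln3 was not called (adjusted p = 0.168).

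Among 16 genes of glycolysis and glucose transport, Pfkl, Ldha and Pgam1 fell, Pfkp and Slc16a1 rose and 11 were not called. The share called was 31.2%, against 5.69% of all genes, and the median was -0.095. Ldha, which turns pyruvate into lactate, read 13.99, 14.25 and 14.07 on the 6 h arrays and 13.55, 13.62 and 13.58 on the 12 h arrays. It was 1.43-fold lower (log2 shift -0.52 ± 0.079, adjusted p = 0.000754), called under each of the 15 alternatives. The phosphofructokinases went apart: the liver form Pfkl read 9.16, 9.13 and 9.07 on the 6 h arrays and 8.23, 8.56 and 8.25 on the 12 h arrays (log2 shift -0.77 ± 0.12, adjusted p = 0.00109), and the platelet form Pfkp read 10.48, 10.59 and 10.56 on the 6 h arrays and 10.89, 10.82 and 10.96 on the 12 h arrays (log2 shift 0.34 ± 0.094, adjusted p = 0.0402). Phosphoglycerate mutase, Pgam1, fell (-0.39 ± 0.094, adjusted p = 0.0205) and the lactate carrier Slc16a1 rose (0.25 ± 0.066, adjusted p = 0.0342). Pgam1 lost its call without 12 h array 2 or 6 h array 2 or 3 (adjusted p = 0.0504 to 0.103). Pfkp lost its call without each of the 6 arrays in turn (adjusted p = 0.0624 to 0.125). Slc16a1 lost its call without 12 h array 2 or 3 or 6 h array 1 or 2 (adjusted p = 0.0875 to 0.125). Pfkl has a probe set of opposite sign and was not called when averaged (adjusted p = 0.297). The count of the list was 2 without 6 h array 2, and 3 without 12 h array 3 or 6 h array 3. Hexokinase Hk2 (log2 shift -0.13 ± 0.091, adjusted p = 0.482) and the glucose carrier Slc2a1 (log2 shift 0.26 ± 0.080, adjusted p = 0.0684) were not called. Ppp1r3d, which targets phosphatase to glycogen, was the called member of 12 glycogen genes (8.33%, against 5.69% of all genes). It fell from 10.20, 10.09 and 9.93 to 9.56, 9.35 and 9.50 (log2 shift -0.60 ± 0.089, adjusted p = 0.000601).

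The promoters of Ldha and Egln3 are shown because these HIF targets fell together and both hold ACGTG, the core of the hypoxia response element, marked in capitals. The Ldha stretch is chr7:46845619-46845803 (plus strand, bases 185 to 1 before the start site), and the Egln3 stretch is chr12:54204059-54204124 (minus strand, bases 250 to 185 before the start site), both from RefSeq's GRCm38.p6 annotation.
Ldha: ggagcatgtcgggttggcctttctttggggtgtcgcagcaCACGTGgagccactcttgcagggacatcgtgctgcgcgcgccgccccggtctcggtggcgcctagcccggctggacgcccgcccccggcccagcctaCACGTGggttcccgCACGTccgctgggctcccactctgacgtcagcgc
Egln3: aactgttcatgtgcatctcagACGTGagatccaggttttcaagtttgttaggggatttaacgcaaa
Ldha has 5 matches in 3 separate places, because CACGTG reads as ACGTG on both strands, and Egln3 has 1. Of the other called members of the 2 lists that fell, Egln1, Bnip3 and Pgam1 hold ACGTG in the 250 bases before the start site, and Pdk1, Higd1a and Pfkl do not. Of those that rose, Ero1a and Slc16a1 hold it and Pfkp does not. ACGTG was found on either strand in 68 of 248 promoters of genes that rose (27.4%), 85 of 305 of genes that fell (27.9%) and 2513 of 9806 of all genes tested (25.6%), and CACGTG, which contains it, in 8.47%, 9.51% and 10.1%. The shares of the groups lie within each other's 95% binomial intervals (exact Clopper-Pearson), 22.0% to 33.4% for ACGTG in genes that rose and 22.9% to 33.3% in genes that fell.

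Mitochondrial genes had small negative changes, most of which did not pass the test. Of 33 complex I genes, Ndufa3, Ndufb3 and Ndufb6 fell, and 32 of the 33 had a negative change, with a median of -0.12 that became -0.060 after quantile normalization. Of 38 genes of complexes II to V, Sdhd and Uqcr11 fell, 1 change was positive, and the median of -0.11 became -0.042 after quantile normalization. The shares called were 9.09% for complex I and 5.26% for complexes II to V, against 5.69% of all genes. Ndufa3, an accessory subunit of complex I, read 13.71, 13.70 and 13.69 on the 6 h arrays and 13.44, 13.46 and 13.26 on the 12 h arrays. It was 1.24-fold lower without overlap (log2 shift -0.31 ± 0.060, adjusted p = 0.0046), with an adjusted p of 0.0534 when probe sets were averaged. Ndufb3 (-0.29 ± 0.064, adjusted p = 0.0112), Ndufb6 (-0.27 ± 0.062, adjusted p = 0.0157), the succinate dehydrogenase anchor Sdhd (-0.27 ± 0.060, adjusted p = 0.0136) and Uqcr11 of complex III (-0.26 ± 0.065, adjusted p = 0.0234) fell by amounts close to one another. Of 63 mitochondrial ribosomal proteins, Mrpl18 (-0.28 ± 0.062, adjusted p = 0.0124) and Mrpl12 (-0.22 ± 0.060, adjusted p = 0.0379) fell, with a median of -0.10, and their share of 3.17% was that of all genes called lower (3.18%). Of 16 genes of mitochondrial biogenesis (6.25% called) the corepressor Nrip1 fell (-0.33 ± 0.074, adjusted p = 0.012). Ppargc1a, which encodes PGC-1alpha, read 9.14, 9.27 and 9.47 on the 6 h arrays and 9.19, 9.59 and 9.57 on the 12 h arrays (log2 shift 0.16 ± 0.12, adjusted p = 0.541). The 4 other kept probe sets of Ppargc1a changed by -0.33 to 0.12 and were not called. Ndufb3 lost its call without 12 h array 3 or 6 h array 2 (adjusted p = 0.0543 to 0.064). Ndufb6 lost its call without 12 h array 1 or 2 or 6 h array 2 (adjusted p = 0.0554 to 0.0914). Sdhd lost its call without 12 h array 2 or 3 or 6 h array 1 or 2 (adjusted p = 0.0562 to 0.076). Uqcr11 lost its call without 12 h array 1 or 3 or 6 h array 1, 2 or 3 (adjusted p = 0.0505 to 0.099). Mrpl18 lost its call without 12 h array 3 or 6 h array 3 (adjusted p = 0.0509 to 0.0604). Mrpl12 lost its call without 12 h array 1 or 3 or 6 h array 1, 2 or 3 (adjusted p = 0.0606 to 0.15). Nrip1 lost its call without 12 h array 1 or 6 h array 2 (adjusted p = 0.0552 to 0.0745). Ndufb6 (adjusted p = 0.0911), Sdhd (0.0742) and Nrip1 (0.525) were not called when probe sets were averaged, and Nrip1 has a kept probe set of opposite sign. The complex I list had 1 called member without 6 h array 2, the list of complexes II to V had 0 without 12 h array 3 or 6 h array 2 and 1 without 12 h array 1, 6 h array 1 or 6 h array 3, and the mitochondrial ribosomal list had 0 without 12 h array 3 and 4 without 12 h array 2.

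Cell cycle genes were called lower where they were called. Of 29 tested, 7 fell (Rrm2, Bub1, Ccnb2, Mki67, Cdc20, Ccna2 and Cdk1) and 22 were not called (24.1% called, against 5.69% of all genes). A positive change was seen in 2, and the median was -0.18. Rrm2, the ribonucleotide reductase subunit made in S phase, read 10.51, 10.52 and 10.47 on the 6 h arrays and 10.01, 9.80 and 10.02 on the 12 h arrays. It was 1.47-fold lower (log2 shift -0.56 ± 0.078, adjusted p = 0.000404), with DMSO and 3 h means of 10.53 and 10.61. Ccnb2, a mitotic cyclin, read 9.38, 9.58 and 9.48 on the 6 h arrays and 9.03, 9.002 and 9.09 on the 12 h arrays. The 12 h arrays were all lower (log2 shift -0.44 ± 0.087, adjusted p = 0.00596), after means of 9.34 in DMSO, 9.50 at 3 h and 9.48 at 6 h. Bub1, a kinase of the spindle checkpoint, read 9.41, 9.46 and 9.45 on the 6 h arrays and 8.93, 8.93 and 9.15 on the 12 h arrays and fell likewise (log2 shift -0.44 ± 0.092, adjusted p = 0.00882). The proliferation marker Mki67 (-0.42 ± 0.097, adjusted p = 0.0171), the anaphase activator Cdc20 (-0.39 ± 0.092, adjusted p = 0.0181), cyclin A2, Ccna2 (-0.38 ± 0.084, adjusted p = 0.0124), and the kinase Cdk1 (-0.31 ± 0.084, adjusted p = 0.0369) fell by smaller amounts. Dtl (-0.93 ± 0.21, adjusted p = 0.0128) and Clspn (-0.93 ± 0.24, adjusted p = 0.0296), which act in replication control, were among the 15 largest falls. Mki67 lost its call without 12 h array 1 or 2 or 6 h array 2 (adjusted p = 0.0569 to 0.0937). Cdc20 lost its call without 12 h array 1 or 2 or 6 h array 1 (adjusted p = 0.0634 to 0.0707). Ccna2 lost its call without 12 h array 1 or 6 h array 1 or 2 (adjusted p = 0.0508 to 0.0556). Cdk1 lost its call without 12 h array 1 or 3 or 6 h array 1 or 2 (adjusted p = 0.0744 to 0.181). Dtl lost its call without 12 h array 1 or 2 or 6 h array 1 (adjusted p = 0.0565 to 0.0683). Clspn lost its call without 12 h array 1 or 3 or 6 h array 1, 2 or 3 (adjusted p = 0.0593 to 0.119). Cdc20 (adjusted p = 0.0978), Ccna2 (0.212) and Cdk1 (0.0538) were not called when probe sets were averaged, and Ccna2 has a kept probe set of opposite sign. The other kept probe set of Ccna2 changed by 0.001, and 4 members of the list were called after averaging. The count of the list was 3 without 12 h array 1 and 4 without 6 h array 1 or 6 h array 2.

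The promoters of Rrm2 and Ccnb2 are shown because these genes fell together and hold CCAAT, the box bound by NF-Y that is common in promoters of mitotic genes, marked in capitals. The Rrm2 stretch is chr12:24708164-24708248 (plus strand, bases 90 to 6 before the start site), and the Ccnb2 stretch is chr9:70421555-70421681 (minus strand, bases 127 to 1 before the start site), both from RefSeq's GRCm38.p6 annotation.
Rrm2: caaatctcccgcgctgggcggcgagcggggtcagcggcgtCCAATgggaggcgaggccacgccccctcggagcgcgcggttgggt
Ccnb2: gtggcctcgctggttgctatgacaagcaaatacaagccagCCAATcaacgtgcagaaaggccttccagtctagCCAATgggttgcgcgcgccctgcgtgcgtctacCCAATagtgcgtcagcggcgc
Rrm2 has 1 match and Ccnb2 has 3 in separate places, all reading CCAAT on the gene's strand. On either strand the box was found in 141 of 305 promoters of genes that fell (46.2%, 95% exact interval 40.5% to 52.0%), 79 of 248 of genes that rose (31.9%, 26.1% to 38.0%) and 3800 of 9806 of all genes tested (38.8%). With only the bases before the start site the shares were 45.2%, 30.2% and 36.4%. Promoters are not independent samples, so the intervals describe counting error only and no test was made.

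**Figure D4:**
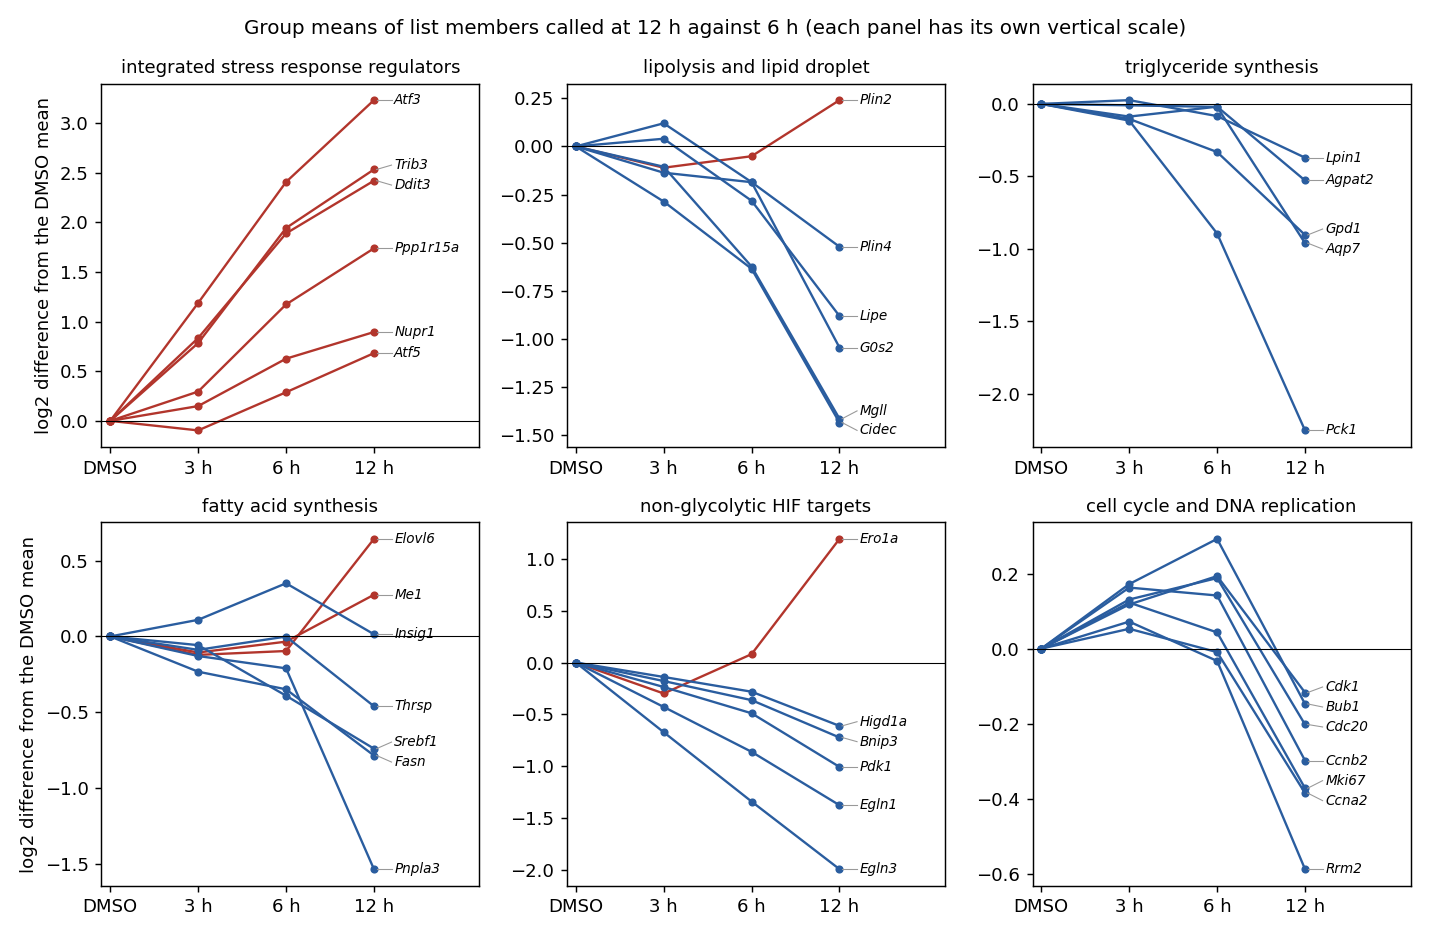
Group means as log2 difference from the DMSO mean (vertical axis, its own scale in each panel) in DMSO and after 3, 6 and 12 h of berberine (horizontal axis, equally spaced), for the members called at 12 h against 6 h in 6 lists, 1 line a gene, red for rises and blue for falls after 6 h. The stress regulators climb from 3 h on, and the HIF targets other than Ero1a fall at every time. Most cell cycle genes, and some droplet and triglyceride genes, lie near or above 0 until 6 h and fall by 12 h. Cidec, Mgll, Lipe, Pck1 and Gpd1 are already called lower than DMSO at 6 h in limma's test of that contrast (adjusted p = 7.43e-06 to 0.0339).

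Clock output and immediate early genes changed in single members. Dbp, a circadian transcription factor, read 11.18, 11.12 and 11.08 on the 6 h arrays and 11.58, 11.59 and 11.81 on the 12 h arrays. It rose 1.45-fold (log2 shift 0.54 ± 0.097, adjusted p = 0.00304). Nr1d2, the repressor REV-ERB beta, read 11.53, 11.48 and 11.48 on the 6 h arrays and 12.00, 12.04 and 12.05 on the 12 h arrays. It rose 1.45-fold (log2 shift 0.54 ± 0.059, adjusted p = 5.83e-05), and its means had climbed from 10.84 in DMSO through 11.31 and 11.49. These were 2 of 10 clock output genes, whereas of 11 core clock genes 0 were called in limma's test (1 at an unadjusted p under 0.05). Maff, a small MAF protein, read 8.44, 8.23 and 8.64 on the 6 h arrays and 9.43, 9.20 and 9.29 on the 12 h arrays. It rose 1.82-fold (log2 shift 0.87 ± 0.13, adjusted p = 0.000591) to a mean above that of DMSO (8.88), after lower means at 3 h (8.48) and 6 h (8.44). Ier3, an early response gene of cell survival, read 9.37, 9.33 and 9.42 on the 6 h arrays and 10.01, 10.21 and 10.03 on the 12 h arrays. Its 12 h arrays were all higher (log2 shift 0.71 ± 0.11, adjusted p = 0.000733). Of 20 immediate early genes, Jund also rose (0.40 ± 0.100, adjusted p = 0.0246) and Nr4a1 fell (-0.46 ± 0.12, adjusted p = 0.0334), with a median of -0.038. Jund lost its call without 12 h array 3 or 6 h array 1 or 2 (adjusted p = 0.0911 to 0.112). Nr4a1 lost its call without 12 h array 2 or 6 h array 1 or 2 (adjusted p = 0.0938 to 0.144). Spry4 fell among 16 ERK feedback genes (-0.57 ± 0.16, adjusted p = 0.0388), of which 6.25% were called, against 5.69% of all genes. Dusp6 read 6.87, 6.65 and 6.91 on the 6 h arrays and 6.41, 6.89 and 6.21 on the 12 h arrays (log2 shift -0.30 ± 0.23, adjusted p = 0.525). Spry4 lost its call without 12 h array 1, 2 or 3 or 6 h array 2 or 3 (adjusted p = 0.0542 to 0.133). Spry4 (adjusted p = 0.303) was not called when probe sets were averaged, and it has a kept probe set of opposite sign.

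Autophagy, growth control and sphingolipid genes included some that were called. Sqstm1, the cargo receptor p62, read 12.11, 11.98 and 11.94 on the 6 h arrays and 12.43, 12.55 and 12.61 on the 12 h arrays. It rose 1.43-fold (log2 shift 0.52 ± 0.069, adjusted p = 0.00027), and the kinase Ulk1 (0.40 ± 0.098, adjusted p = 0.0226) and the ATG8 protein Gabarapl1 (0.40 ± 0.088, adjusted p = 0.012) rose with it, 3 of 27 autophagy genes, while Bnip3 fell (-0.36 ± 0.079, adjusted p = 0.0119). Deptor, which inhibits mTOR, read 10.53, 10.42 and 10.55 on the 6 h arrays and 10.88, 10.93 and 10.91 on the 12 h arrays and rose 1.32-fold (log2 shift 0.40 ± 0.066, adjusted p = 0.00123) among 13 mTORC1 inhibitors and sestrins, of which Ddit4 fell (-0.54 ± 0.13, adjusted p = 0.0256). Sptlc2, a subunit of serine palmitoyltransferase, read 11.22, 11.27 and 11.18 on the 6 h arrays and 11.50, 11.70 and 11.65 on the 12 h arrays. It rose 1.32-fold (log2 shift 0.40 ± 0.078, adjusted p = 0.00576). Cers4, a ceramide synthase, read 12.50, 12.53 and 12.55 on the 6 h arrays and 12.13, 12.17 and 12.22 on the 12 h arrays. That gene fell (log2 shift -0.35 ± 0.057, adjusted p = 0.00109) and was called under each of the 15 alternatives. Sgpl1 (0.34 ± 0.095, adjusted p = 0.045) and Sptssa (-0.22 ± 0.060, adjusted p = 0.0396) completed 4 calls among 17 sphingolipid genes. The autophagy, mTORC1 inhibitor and sphingolipid lists had 14.8%, 15.4% and 23.5% called, in that order, against 5.69% of all genes. Ulk1 lost its call without 12 h array 1 or 3 or 6 h array 2 (adjusted p = 0.074 to 0.0947). Gabarapl1 lost its call without 12 h array 2 or 6 h array 3 (adjusted p = 0.0562 to 0.0566). Bnip3 lost its call without 12 h array 3 or 6 h array 2 (adjusted p = 0.0504 to 0.0733). Ddit4 lost its call without 12 h array 1, 2 or 3 or 6 h array 1 or 3 (adjusted p = 0.0527 to 0.115). Sgpl1 lost its call without 12 h array 1, 2 or 3 or 6 h array 2 or 3 (adjusted p = 0.089 to 0.175). Sptssa lost its call without 12 h array 1 or 3 or 6 h array 2 or 3 (adjusted p = 0.108 to 0.171). Averaged over probe sets, Sqstm1 (adjusted p = 0.263), Deptor (0.0699) and Sptlc2 (0.493) were not called, and Deptor and Sptlc2 have a probe set of opposite sign. Ddit4 (adjusted p = 0.0512) and Sgpl1 (0.651) were not called when probe sets were averaged.

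In growth factor signalling, Id1, an inhibitor of differentiation that BMP induces, read 10.81, 10.95 and 10.95 on the 6 h arrays and 10.41, 10.39 and 10.34 on the 12 h arrays. It was 1.44-fold lower without overlap (log2 shift -0.53 ± 0.070, adjusted p = 0.00027). Of 20 genes of TGF-beta and BMP signalling, the BMP antagonist Grem1 (0.79 ± 0.18, adjusted p = 0.0132) and Smad4 (0.19 ± 0.055, adjusted p = 0.0478) rose, and Tgfb2 (-0.60 ± 0.16, adjusted p = 0.0369) and the activin subunit Inhbb (-0.53 ± 0.12, adjusted p = 0.0128) fell beside Id1. The Wnt receptors Fzd4 (-0.40 ± 0.097, adjusted p = 0.0196) and Fzd5 (-0.32 ± 0.082, adjusted p = 0.0296) fell among 18 Wnt genes. The TGF-beta and BMP list had 25.0% called and the Wnt list 11.1%, against 5.69% of all genes. Their list medians were 0.041 and 0.023, in that order, against -0.013 over all genes. Grem1 lost its call without 12 h array 2 or 3 or 6 h array 1 (adjusted p = 0.0581 to 0.0628). Smad4 lost its call without each of the 6 arrays in turn (adjusted p = 0.0762 to 0.137). Tgfb2 lost its call without 12 h array 2 or 3 or 6 h array 1, 2 or 3 (adjusted p = 0.0806 to 0.158). Inhbb lost its call without 12 h array 2 or 6 h array 1 or 2 (adjusted p = 0.0527 to 0.0626). Fzd4 lost its call without 12 h array 1 or 3 or 6 h array 1 or 2 (adjusted p = 0.0669 to 0.0931). Fzd5 lost its call without 12 h array 1 or 2 or 6 h array 1 or 2 (adjusted p = 0.0847 to 0.111). Smad4 (adjusted p = 0.0915), Tgfb2 (0.0536), Fzd4 (0.116) and Fzd5 (0.935) were not called when probe sets were averaged, and Fzd5 has a kept probe set of opposite sign. The TGF-beta and BMP count was 1 without 12 h array 2 or 6 h array 1, and 2 without 12 h array 3 or 6 h array 2. Spon2, a matrix protein, passed under the threshold at 12 h and was at least 2.32-fold lower (adjusted p = 0.00808; measured means 7.09 and 5.20). Without the intensity trend Spon2 was not called (adjusted p = 0.06), nor were Smad4 (0.0728), Tgfb2 (0.121), Fzd4 (0.0744) and Fzd5 (0.0797). Sult1a1, a sulfotransferase and the leading fall among 16 glucocorticoid-induced genes, read 11.56, 11.63 and 11.45 on the 6 h arrays and 10.95, 10.96 and 10.82 on the 12 h arrays. It was 1.56-fold lower (log2 shift -0.64 ± 0.079, adjusted p = 0.000133) and was called under each of the 15 alternatives. Angptl4 (-0.36 ± 0.080, adjusted p = 0.0124) and Hsd11b1, which regenerates active glucocorticoid (-0.25 ± 0.064, adjusted p = 0.0287), fell on the same list. Of the glucocorticoid list 18.8% was called, against 5.69% of all genes. Angptl4 lost its call without 6 h array 1 (adjusted p = 0.0587). Hsd11b1 lost its call without 12 h array 1, 2 or 3 or 6 h array 1 or 2 (adjusted p = 0.066 to 0.111). Angptl4 (adjusted p = 0.641) was not called when probe sets were averaged.

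Lists of housekeeping machinery had at most 2 called members each. Among 32 proteasome subunits (6.25% called, against 5.69% of all genes) Psma1 read 13.86, 14.08 and 14.00 on the 6 h arrays and 13.61, 13.61 and 13.61 on the 12 h arrays and fell (log2 shift -0.37 ± 0.060, adjusted p = 0.00133), and the ATPase subunit Psmc6 rose (0.21 ± 0.060, adjusted p = 0.0429). Psmc6 lost its call without each of the 6 arrays in turn (adjusted p = 0.0662 to 0.162). Psma1 (adjusted p = 0.712) and Psmc6 (0.884) were not called when probe sets were averaged, and Psma1 and Psmc6 each have a kept probe set of opposite sign. The splicing factors Srsf1 (-0.28 ± 0.060, adjusted p = 0.0109) and Hnrnph1 (-0.21 ± 0.060, adjusted p = 0.0486) fell among 31 (6.45%), and Nhp2, a protein of small nucleolar particles that modify RNA (-0.30 ± 0.068, adjusted p = 0.0135), among 30 genes of ribosome biogenesis (3.33%). Srsf1 lost its call without 12 h array 3 or 6 h array 2 (adjusted p = 0.0504 to 0.0543). Hnrnph1 lost its call without 12 h array 1, 2 or 3 or 6 h array 1 or 2 (adjusted p = 0.102 to 0.171). Nhp2 lost its call without 12 h array 3 or 6 h array 2 (adjusted p = 0.0503 to 0.0662). Single falls were also those of Gadd45g (-0.58 ± 0.13, adjusted p = 0.0112) among 17 p53 and growth arrest targets, the kinase Akt2 (-0.26 ± 0.069, adjusted p = 0.0369) among 18 insulin signalling genes and the tubulin Tubb2a (-0.68 ± 0.097, adjusted p = 0.000442) among 23 cytoskeletal genes. Their lists had 5.88%, 5.56% and 4.35% called, in that order, against 5.69% of all genes. Gadd45g lost its call without 6 h array 2 (adjusted p = 0.054). Akt2 lost its call without 12 h array 1, 2 or 3 or 6 h array 1 or 2 (adjusted p = 0.061 to 0.135). Akt2 (adjusted p = 0.155) and Tubb2a (0.357) were not called when probe sets were averaged, and Akt2 has a kept probe set of opposite sign. Of 25 cytosolic ribosomal proteins, 0 were called in limma's test (1 at an unadjusted p under 0.05), and the list median of -0.062 became 0.0 after quantile normalization. Translation initiation factors had 0 of 23 called (5 at an unadjusted p under 0.05), branched-chain amino acid breakdown 0 of 24 (11), AMPK subunits and kinases 0 of 13 (5), arrestin-domain genes 0 of 8 (1), collagens, laminins and matrix proteases 0 of 34 (6), BCL2 family and death receptor genes 0 of 20 (2), and targets of the aryl hydrocarbon receptor 0 of 6 (2). Txnip, the glucose-responsive arrestin, read 13.01, 12.97 and 12.74 on the 6 h arrays and 13.03, 13.02 and 13.07 on the 12 h arrays (log2 shift 0.14 ± 0.071, adjusted p = 0.308), and Irs2, a docking protein of the insulin receptor, read 8.06, 8.66 and 8.29 on the 6 h arrays and 8.29, 8.14 and 8.06 on the 12 h arrays (log2 shift -0.18 ± 0.15, adjusted p = 0.589).

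The first hours of treatment, measured on arrays that are not part of the comparison, were set beside the late step. Of the 304 genes that rose from 6 h to 12 h, 208 (68.4%) had a 3 h mean above the DMSO mean, against 53.5% of all genes tested. Of the 386 that fell, 268 (69.4%) had a 3 h mean below DMSO, against 46.5% of all genes. Trib3 (10.29 in DMSO, 11.08 at 3 h) and Hcar2 (11.02 and 10.38) are examples of genes whose 3 h mean lay on the side of the later change. Maff (8.88 and 8.48), Ero1a (12.78 and 12.48) and Abcc4 (10.27 and 9.88) are examples of the others, with 3 h means below DMSO before their late rise. These counts describe the called genes and were not tested.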

How the data were processed

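RNA of 12 samples of 3T3-L1 adipocytes was read on Affymetrix arrays. The authors deposited log2 signal, made with MAS5 per the submitters' processing notes (its version is not given in the sources used here), and the 2% trimmed mean of the linear values was 500.004 on every array. Probe sets were named from the platform annotation in GEO: of 45037, 34945 had 1 gene symbol, 932 several and 9160 none, and only the first kind was named. A probe set was kept when 3 of 12 arrays reached the median of all values, and 19984 were dropped. 5611 genes had more than 1 kept probe set, and 104 were read by an _x_at probe set, which can cross-hybridize. 5 genes were kept only through the 12 h arrays and 5 only through the 6 h arrays.

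Values were used as deposited. limma 3.58.1 (R 4.3.3; lmFit, eBayes with an intensity trend, two-sided) was fitted over all 12 arrays in 4 groups with 8 residual degrees of freedom, and the contrast 12 h minus 6 h was adjusted by Benjamini-Hochberg over 12136 genes. A gene with a group mean under the threshold is given as a bound against it. Summaries and plots used Python 3.11.15 and matplotlib 3.10.9. On simulated data for this comparison (12136 genes, 200 changed, 20 runs), 46.7%, 74.3% and 89.8% of genes changed by 0.5, 1 and 2 on the log2 scale were recovered, with 4.82% of calls false. The number of arrays limits the precision.

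Genes were named by rule: the 15 largest called rises and falls above threshold without overlap, up to 4 bounds each way, up to 4 called members of each of 61 lists, and a set of single genes. 16 further called list members were named to complete a count, after their values were seen. The members and lists were chosen with earlier results of these data known. Promoters from RefSeq (GRCm38.p6, 250 bases before to 50 after the start, the window listed first for each gene) matched 9806 of the 12136 genes. Alternatives covered normalization, the dim filter, the probe set rule, the arrays fitted, the trend, the replicate number as a block and each array left out.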

Additional observations from a re-analysis of the deposited data

How the results depend on the processing

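The number of called genes depended most on how limma's variance was modelled and on single arrays. Without the intensity trend it was 296 (134 higher, 162 lower; 281 of them shared with the 690 and in the same direction), and probe sets fell from 948 to 308. With the mean of a gene's probe sets, 481 were called, 192 of them higher, and 396 were shared. Leaving out 1 array gave 376 to 539 genes (162 to 251 higher, 211 to 288 lower) and 492 to 672 probe sets, lowest without 6 h array 2. The other settings gave 533 to 789 genes, and no gene called both there and in the 690 turned its direction under any setting. Of 153 named calls, 80 were lost without the trend, 50 with averaged probe sets and 34 to 64 with 1 array left out.

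With the replicate number as a block, 677 genes and 887 probe sets were called and 9 of the 153 named calls were lost. Deviations of same-numbered 6 h and 12 h arrays correlated at 0.018 to 0.030, and those of differently numbered arrays at -0.041 to 0.02. All these values are small, and whether the numbers pair the arrays cannot be told from them.

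The 3 arrays of a group limit what can be seen: genes changed by 0.5 on the log2 scale were recovered in 46.7% of simulated cases, so the absence of a call does not show that 2 levels are alike. Groups of 3 were not tested for outlying arrays.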
